A study of Homo sapiens with 4 samples.

Results

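The 8 enzymes described here belong to the tricarboxylic acid (TCA) cycle and its isocitrate branch, and their transcripts were followed by RNA-Seq in FaDu cells. They were CS, IDH1, IDH2, IDH3A, DLST, SDHB, FH and MDH2, chosen by symbol as the rows of the expression table that lie on an assembled chromosome, and they made 8 of 62077 rows. Each of the 8 symbols was found on 1 such row. MDH2 had a further row on a patch contig, listed at 0 in all 4 libraries, which the rule leaves out. The set carries glutamine entry in its name, but none of the 8 is a glutamine transporter, a glutamate dehydrogenase or a transaminase. Such genes are described separately, after the 8.

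FaDu is an established cell line from a squamous carcinoma of the hypopharynx. The cells carried a scrambled control (scr) or a TET1 knockdown (TET1-si) and grew in normoxia (N) or in hypoxia (H), which lasted 19 h in a gas of 1% O2 with 94% N2 and 5% CO2. The 4 groups, N-scr, H-scr, N-si and H-si, had 1 library each. The study's methods describe the knockdown as a lentiviral short hairpin in the pLKO.1-puro vector, list 1 hairpin sequence against TET1, and do not say how many infections stand behind a library. The comparisons ask how hypoxia altered the transcripts of the cycle and whether the change had another size after TET1 knockdown. No group had a replicate, so every difference below is one between single libraries, no p-value is given, and intervals cover counting error only.

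The TCA cycle oxidises acetyl groups in the mitochondrial matrix. Citrate synthase joins acetyl-CoA to oxaloacetate, isocitrate dehydrogenases turn isocitrate into 2-oxoglutarate, and the 2-oxoglutarate dehydrogenase complex, succinyl-CoA ligase, succinate dehydrogenase, fumarase and malate dehydrogenase lead back to oxaloacetate. Glutamine enters at 2-oxoglutarate after it has been converted to glutamate. 2-oxoglutarate is a co-substrate of the TET dioxygenases, which oxidise 5-methylcytosine in DNA, and of the prolyl hydroxylases that mark hypoxia-inducible factors (HIFs) for degradation, while succinate and fumarate inhibit both classes. Metabolites were not measured in these libraries.

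Promoters are shown for 3 of the enzymes. IDH1 and IDH2 were the 2 of the 8 that were higher in hypoxia in scrambled cells, and FH was lower in hypoxia and holds the same short element. Each sequence is the 250 bases before the start of the canonical transcript in GENCODE v44lift37, read from GRCh37, which shares its chromosome coordinates with hg19, and printed in the direction of transcription. Capitals mark GCGTG and its reverse complement CACGC, a core of the element bound by HIFs. The positions are chr2:209119796-209120045 (minus strand) for IDH1, chr15:90645701-90645950 (minus strand) for IDH2 and chr1:241683056-241683305 (minus strand) for FH.
IDH1: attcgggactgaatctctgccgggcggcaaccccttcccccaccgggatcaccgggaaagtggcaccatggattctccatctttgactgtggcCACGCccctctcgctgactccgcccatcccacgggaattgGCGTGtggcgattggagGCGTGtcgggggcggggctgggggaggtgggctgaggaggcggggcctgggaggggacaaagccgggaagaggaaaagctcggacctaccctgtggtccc
IDH2: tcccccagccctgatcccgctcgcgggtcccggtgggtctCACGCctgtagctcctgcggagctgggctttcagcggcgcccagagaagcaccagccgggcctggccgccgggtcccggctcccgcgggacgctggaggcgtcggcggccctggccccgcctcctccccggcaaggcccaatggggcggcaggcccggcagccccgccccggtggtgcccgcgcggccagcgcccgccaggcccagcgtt
FH: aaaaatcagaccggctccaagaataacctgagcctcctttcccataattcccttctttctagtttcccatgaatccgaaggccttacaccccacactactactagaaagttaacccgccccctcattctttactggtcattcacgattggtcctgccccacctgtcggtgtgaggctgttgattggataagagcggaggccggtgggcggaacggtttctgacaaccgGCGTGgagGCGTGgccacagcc

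GCGTG was found on either strand in 5 of the 8 promoters, with 3 matches in IDH1, 2 in IDH3A, 2 in FH, 1 in IDH2 and 1 in SDHB. Over 19881 promoters of the same length it was found in 40.3%. The other form of the HIF core, ACGTG (reverse complement CACGT), was found in 0 of the 8 and in 20.5% of all promoters. The palindrome CACGTG holds ACGTG on both strands, and 51.4% of all promoters held at least 1 of the 2 forms. The ETS core CCGGAAG (reverse complement CTTCCGG) was found in DLST, SDHB and MDH2 and in 11.9% of all promoters. GCGTG therefore stood before enzymes that were higher in hypoxia and before enzymes that were lower. A match describes letters in this window and does not show that a factor binds there.

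Recovered depth was 22400000 to 24500000 reads per library, and the 8 enzymes had between 1247 reads (SDHB in H-si) and 13928 reads (MDH2 in N-scr), estimated from FPKM, depth and canonical transcript length. TET1, the knockdown target, was at 0.129 FPKM (N-scr), 0.331 FPKM (H-scr), 0.0493 FPKM (N-si) and 0.122 FPKM (H-si), from 11 to 76 reads. It was 2.63-fold lower with TET1-si in normoxia (log2 counting interval -2.61 to -0.4) and 2.71-fold lower in hypoxia (-2.12 to -0.76). All 8 epithelial markers (KRT5, KRT14, KRT8, KRT18, TP63, CDH1, EPCAM and JUP) had a mean of at least 1 FPKM. Their summed level, however, was 6032 (N-scr) and 7552 FPKM (H-scr) against 1944 (N-si) and 2893 FPKM (H-si). The keratins KRT5, KRT14, KRT8 and KRT18 were each at least 2-fold lower with TET1-si in both oxygen states and make up most of the sum. The junction genes CDH1, EPCAM and JUP were higher with TET1-si, by 0.57, 0.41 and 0.5 in normoxia and 0.45, 0.68 and 0.27 in hypoxia, and the squamous factor TP63 changed by -0.27 and -0.04. Of 7 markers of leukocytes, endothelium and fibroblasts, 6 were on a chromosome row and 3 (COL1A1, CD68 and VWF) had a mean of at least 1 FPKM. Their sum was 26.8 (N-scr), 50.2 (H-scr), 40.8 (N-si) and 66.8 FPKM (H-si), with PTPRC, COL1A2 and PDGFRB at or near 0. COL1A1 was 5.40-fold and VWF 11.1-fold higher with hypoxia in scrambled cells, and COL1A1 was 2.64-fold higher with TET1-si in normoxia. With hypoxia KRT14 was higher by 1.24 in scrambled and 1.36 in TET1-si cells, and KRT5 by 0.58 and 1.45. KRT8 changed by 0.13 and -0.09 with hypoxia, and KRT18 by -0.19 and -0.42. The keratins thus moved with the knockdown, KRT5 and KRT14 also with hypoxia, and COL1A1 and VWF with both. The changes given below moved with the same conditions, and the part of these markers in them was not tested. In bulk RNA, fewer cells with a transcript and less transcript per cell cannot be told apart.

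All 8 enzymes were well expressed. Their mean over the 4 libraries ran from 39.7 FPKM (IDH2) to 230 FPKM (MDH2). Among 15057 genes with a mean of at least 1 FPKM, their levels lay between the 69.8 percentile, IDH2 in H-si, and the 97.3 percentile, MDH2 in N-scr. FPKM is scaled by transcript length, so levels can be set side by side between genes. In N-scr the order from highest to lowest was MDH2, CS, SDHB, DLST, IDH3A, FH, IDH1 and IDH2. SDHB and DLST were neighbours whose counting intervals overlapped. In H-scr IDH1 stood second after MDH2, and SDHB, IDH3A, IDH2 and FH lay within overlapping neighbouring intervals at the bottom. In N-si the order was MDH2, DLST, FH, SDHB, CS, IDH3A, IDH1 and IDH2, with FH and SDHB, and CS and IDH3A, overlapping. In H-si DLST was highest, followed by MDH2 and IDH1, and CS stood next to last above IDH2. The summed level of the 8 enzymes was 1041 FPKM (N-scr), 860 FPKM (H-scr), 962 FPKM (N-si) and 645 FPKM (H-si).

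**Figure D1:**
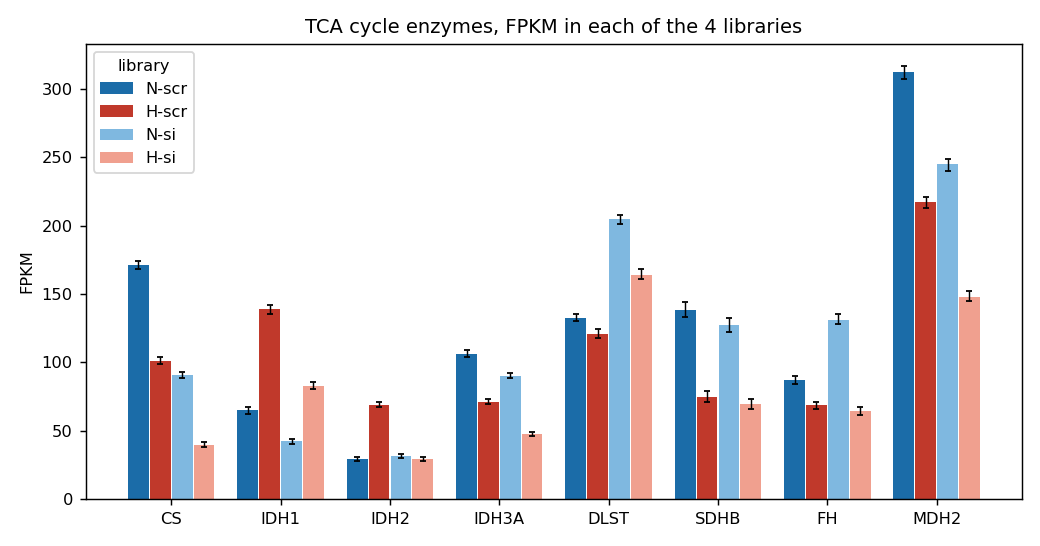
FPKM of the 8 enzymes in the 4 libraries, 1 bar per library, with 95% counting intervals as error bars. IDH1 and IDH2 are the 2 enzymes with a higher value in H-scr than in N-scr, and CS spans 171 FPKM in N-scr to 39.8 FPKM in H-si.

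CS (ENSG00000062485, chromosome 12, 56665483 to 56694176, minus strand, hg19) encodes citrate synthase, the step by which acetyl-CoA enters the cycle. It was at 171 FPKM (N-scr), 101 FPKM (H-scr), 90.6 FPKM (N-si) and 39.8 FPKM (H-si). Hypoxia and TET1-si each went with a lower level, and the library with both was the lowest. The hypoxia difference on the log2(FPKM + 0.1) scale was -0.76 (95% counting interval -0.8 to -0.72) without knockdown and -1.18 (-1.26 to -1.12) in TET1-si cells. The TET1-si difference was -0.92 (-0.96 to -0.87) in normoxia and -1.34 (-1.41 to -1.28) in hypoxia, where CS was 2.54-fold lower. Of the canonical CS exons, 220 bases are shared on the same strand with a CNPY2 readthrough gene, which the table lists at 70.3 FPKM in N-scr and 36.6 in H-si, so reads there may be split between both.

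IDH1 and IDH2 encode NADP-dependent isocitrate dehydrogenases, IDH1 in the cytosol and peroxisomes and IDH2 in mitochondria. Both make 2-oxoglutarate with NADPH and can run in reverse to make isocitrate. IDH1 (ENSG00000138413, chromosome 2, 209100951 to 209130798, minus strand) was at 64.7 FPKM (N-scr), 139 FPKM (H-scr), 42.1 FPKM (N-si) and 82.8 FPKM (H-si). It was higher in hypoxia with and without the knockdown, 2.14-fold (log2 change 1.10, interval 1.04 to 1.16) in scrambled cells and 1.97-fold (0.97, 0.9 to 1.05) in TET1-si cells. TET1-si went with a lower level in both oxygen states, -0.62 (-0.7 to -0.54) in normoxia and -0.74 (-0.8 to -0.69) in hypoxia.

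IDH2 (ENSG00000182054, chromosome 15, 90626277 to 90645736, minus strand) was at 29.2 FPKM (N-scr), 68.9 FPKM (H-scr), 31.5 FPKM (N-si) and 29.1 FPKM (H-si). H-scr stood alone, and the other 3 libraries lay between 29.1 and 31.5 FPKM. In scrambled cells IDH2 was 2.36-fold higher in hypoxia (log2 change 1.24, interval 1.16 to 1.32). In TET1-si cells the change was -0.11 (-0.21 to -0.02), which became 0.02 when the values were rescaled to TPM. In hypoxia IDH2 was 2.37-fold lower with TET1-si (-1.24, -1.33 to -1.16). In normoxia the TET1-si change was 0.11 (0.01 to 0.21), and it was -0.06 and -0.01 under median-of-ratios and upper-quartile scaling.

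IDH3A encodes the catalytic alpha subunit of the NAD-dependent isocitrate dehydrogenase, the enzyme of the forward cycle. IDH3A (ENSG00000166411, chromosome 15, 78423840 to 78464291, plus strand) was at 106 FPKM (N-scr), 71.0 FPKM (H-scr), 90.1 FPKM (N-si) and 47.7 FPKM (H-si). It was lower in hypoxia, by -0.58 (-0.63 to -0.54) in scrambled and -0.92 (-0.97 to -0.86) in TET1-si cells. Its TET1-si change was -0.24 (-0.28 to -0.2) in normoxia and -0.57 (-0.63 to -0.52) in hypoxia. The canonical IDH3A exons share 2608 bases with exons of ACSBG1 on the opposite strand, at 3.03 to 6.89 FPKM in the table, and counting by strand is not stated. The summed level of IDH1 and IDH2 was 0.882 times that of IDH3A (N-scr), 2.92 (H-scr), 0.816 (N-si) and 2.34 (H-si). This sum thus exceeded IDH3A in both hypoxic libraries and was below it in both normoxic ones. The same held for IDH1 alone, at 0.608 (N-scr), 1.95 (H-scr), 0.467 (N-si) and 1.73 (H-si) times IDH3A. IDH2 alone was below IDH3A in every library, at 0.274, 0.971, 0.349 and 0.610 times its level in the same order.

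DLST encodes the dihydrolipoamide succinyltransferase of the 2-oxoglutarate dehydrogenase complex, which turns 2-oxoglutarate into succinyl-CoA. DLST (ENSG00000119689, chromosome 14, 75348594 to 75370448, plus strand) was at 132 FPKM (N-scr), 121 FPKM (H-scr), 205 FPKM (N-si) and 164 FPKM (H-si). Both TET1-si libraries were above both scrambled ones. The TET1-si change was 0.63 (0.59 to 0.67) in normoxia and 0.44 (0.4 to 0.48) in hypoxia. The hypoxia changes of DLST were the smallest in scrambled cells among the 8, at -0.13 (-0.18 to -0.08), and -0.32 (-0.36 to -0.28) in TET1-si cells.

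SDHB encodes the iron-sulfur subunit of succinate dehydrogenase, which oxidises succinate to fumarate and is complex II of the respiratory chain. SDHB (ENSG00000117118, chromosome 1, 17345217 to 17380665, minus strand) was at 138 FPKM (N-scr), 74.7 FPKM (H-scr), 127 FPKM (N-si) and 69.3 FPKM (H-si). The 2 hypoxic libraries were close to each other, as were the 2 normoxic ones. The hypoxia change was -0.89 (-0.98 to -0.79) in scrambled and -0.87 (-0.97 to -0.77) in TET1-si cells, and the 2 changes differed by 0.02 (-0.12 to 0.15). The TET1-si change was -0.13 (-0.21 to -0.05) in normoxia, and in hypoxia it was -0.11 with an interval from -0.22 to 0.0.

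FH encodes fumarase, which hydrates fumarate to malate. FH (ENSG00000091483, chromosome 1, 241660903 to 241683061, minus strand) was at 87.1 FPKM (N-scr), 68.4 FPKM (H-scr), 131 FPKM (N-si) and 64.3 FPKM (H-si). N-si stood above the other 3 libraries. The TET1-si change was 0.59 (0.53 to 0.66) in normoxia and -0.09 (-0.17 to -0.01) in hypoxia. The hypoxia change was -0.35 (-0.42 to -0.27) without knockdown and -1.03 (-1.1 to -0.96) in TET1-si cells, where FH was 2.04-fold lower.

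MDH2 encodes the mitochondrial malate dehydrogenase, which regenerates oxaloacetate. MDH2 (ENSG00000146701, chromosome 7, 75677369 to 75696826, plus strand) was at 312 FPKM (N-scr), 217 FPKM (H-scr), 245 FPKM (N-si) and 148 FPKM (H-si). It was highest in N-scr and lowest in H-si, as CS was, but N-si lay above H-scr, the opposite of their order in CS. The hypoxia change was -0.52 (-0.56 to -0.49) in scrambled and -0.72 (-0.77 to -0.68) in TET1-si cells. The TET1-si change was -0.35 (-0.39 to -0.31) in normoxia and -0.55 (-0.59 to -0.5) in hypoxia.

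**Figure D2:**
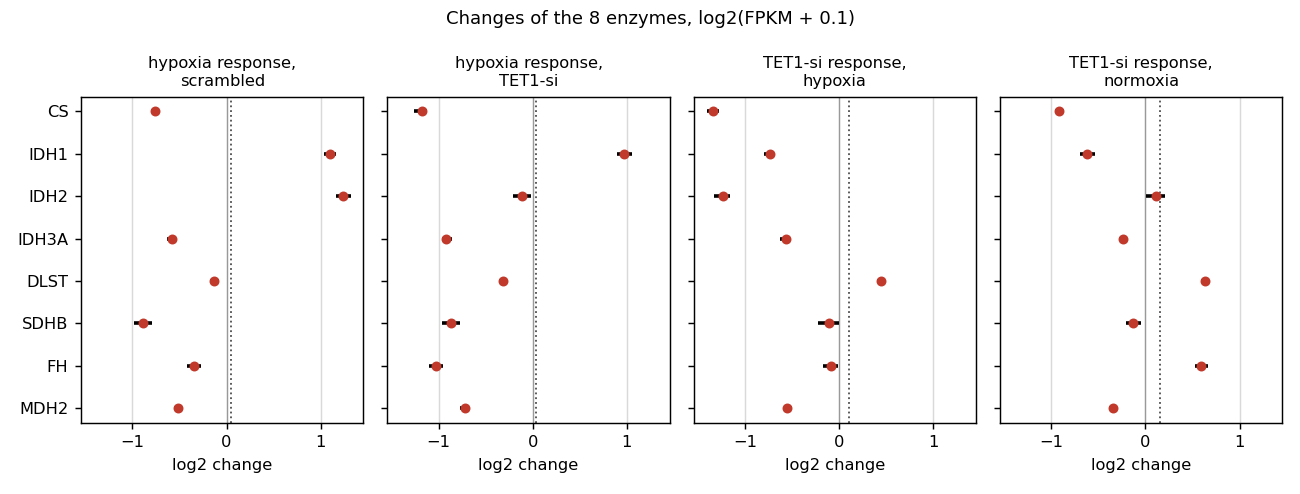
Change of each enzyme on the log2(FPKM + 0.1) scale in the 4 comparisons, 1 panel each. Bars are 95% counting intervals, often narrower than the points, dotted lines are the median of 15057 genes, and grey lines mark 0 and a 2-fold change. IDH1 and IDH2 lie to the right in hypoxia in scrambled cells, and IDH1 alone is clearly to the right in TET1-si cells. The values of IDH2 near 0, in TET1-si cells and in normoxia, change sign with the scaling.

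In the hypoxia response of scrambled cells (H-scr divided by N-scr) 2 of the 8 enzymes were higher and 6 lower. At least 2-fold higher were IDH1 and IDH2, where 12.9% of 15057 genes were, and 0 were at least 2-fold lower, where 4.53% of genes were. At 1.5-fold the counts were 2 higher, with 23.2% of genes, and 2 lower (CS and SDHB), with 13.7% of genes. IDH3A, at -0.58, lay just inside the 1.5-fold limit. Under median-of-ratios scaling it passed this limit, at -0.63, and the count lower was 3. The median over the 8 was -0.44 and that of all genes 0.05. The genes with a mean of at least 30 FPKM had a median of -0.12, and 17.2% of these were at least 1.5-fold lower.

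In the hypoxia response of TET1-si cells (H-si divided by N-si) 1 enzyme, IDH1, was higher and 7 were lower. At least 2-fold higher were 0 of 8, with 12.5% of genes, and at least 2-fold lower were CS and FH, with 8.66% of genes. FH, at -1.03, missed this size under upper-quartile scaling and TPM, and IDH1, at 0.97, reached it under both. At 1.5-fold IDH1 was higher, with 23.7% of genes, and CS, IDH3A, SDHB, FH and MDH2 were lower, with 19.0% of genes. Of the genes with a mean of at least 30 FPKM, 25.9% were at least 1.5-fold lower. The median over the 8 was -0.8, against 0.03 for all genes and -0.18 for the abundant ones.

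Under hypoxia, in the TET1-si response (H-si divided by H-scr) DLST was higher and the other 7 enzymes were lower. At least 2-fold lower were CS and IDH2, with 8.35% of genes, and 0 were at least 2-fold higher, with 12.0% of genes. At 1.5-fold 3 were lower (CS, IDH1 and IDH2), with 16.8% of genes, and 0 were higher, with 24.3% of genes. The count of 3 was 5 under median-of-ratios and upper-quartile scaling, where IDH3A and MDH2 were added. The median over the 8 was -0.56, against 0.1 for all genes and -0.02 for those with a mean of at least 30 FPKM.

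Under normoxia, in the TET1-si response (N-si divided by N-scr) 3 enzymes were higher (IDH2, DLST and FH) and 5 lower, and under median-of-ratios or upper-quartile scaling IDH2 was on the lower side. None of the 8 passed 2-fold, where 12.1% of genes were higher and 5.56% lower, but CS was 2-fold lower under median-of-ratios and upper-quartile scaling. DLST and FH were at least 1.5-fold higher, with 24.7% of genes, and missed that size under the same 2 scalings. CS and IDH1 were at least 1.5-fold lower, with 12.0% of genes, and IDH1 missed that size with TPM. The median over the 8 was -0.18, against 0.15 for all genes and 0.06 for those with a mean of at least 30 FPKM.

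Relative to the median of all genes, which a change of scaling moves with the enzymes, the median over the 8 was -0.48 and -0.82 for hypoxia without and with the knockdown and -0.66 and -0.33 for TET1-si in hypoxia and normoxia. The genes with a mean of at least 30 FPKM had lower medians than all genes in these 4 comparisons, so the gap to them was smaller. The difference of hypoxia responses subtracts the scrambled-cell change from the TET1-si change, so it uses all 4 libraries. It was below 0 for 7 of the 8 enzymes, and their median was -0.27. The median was -0.06 for all genes and -0.09 for those with a mean of at least 30 FPKM. Most genes of both sets were thus below 0 too, and a value below 0 was not particular to the 8. For 62 other pathway genes, described below, the difference was below 0 in 39 and above 0 in 23, with a median of -0.18. Among the 8, IDH2 had the largest difference, -1.35 (-1.48 to -1.23), followed by FH at -0.68 (-0.79 to -0.58) and CS at -0.43 (-0.51 to -0.35). IDH3A was at -0.33, MDH2 at -0.2, DLST at -0.19 and IDH1 at -0.12. For IDH2 the hypoxic increase of scrambled cells was not seen in TET1-si cells, whereas for CS, IDH3A, DLST, FH and MDH2 a hypoxic decrease was deeper. With 1 library per group none of these differences could be tested.

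**Figure D3:**
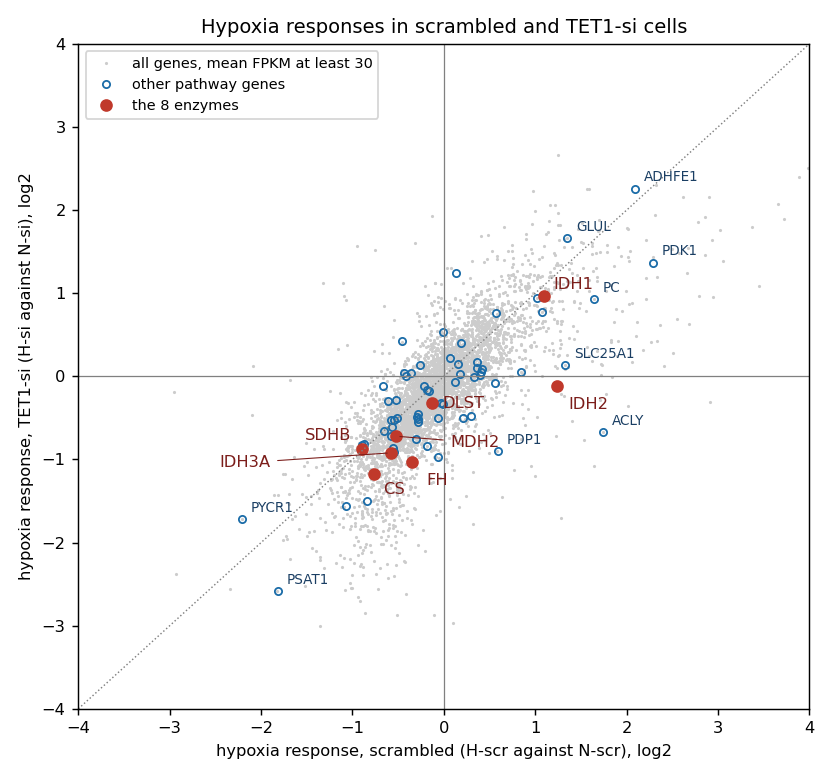
Hypoxia response in scrambled cells (horizontal) against that in TET1-si cells (vertical), both as log2 changes, for the 8 enzymes (red), 62 other pathway genes (blue rings) and the genes with a mean of at least 30 FPKM (grey). The dotted diagonal marks equal responses, and 107 grey genes lie outside the axes. IDH2 lies far below the diagonal with ACLY and SLC25A1, and SDHB lies on it.

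Subunits of the same complex did not share 1 pattern. In the NAD-dependent isocitrate dehydrogenase, IDH3B was at 73.2 FPKM (N-scr), 61.1 FPKM (H-scr), 56.3 FPKM (N-si) and 62.2 FPKM (H-si), and IDH3G at 24.6, 31.6, 28.1 and 31.6 FPKM in the same order. Both varied less over the 4 libraries than IDH3A, and the ratio of IDH3A to IDH3B was 1.45 in N-scr and 0.767 in H-si. In the 2-oxoglutarate dehydrogenase complex, the first subunit OGDH was at 74.3, 78.0, 25.2 and 29.3 FPKM, with a TET1-si change of -1.55 in normoxia and -1.41 in hypoxia. DLST moved the other way, and the ratio of DLST to OGDH was 1.78 and 1.55 in the scrambled libraries and 8.12 and 5.60 in the TET1-si libraries. DLD, the third subunit, which other dehydrogenases share, was at 91.0, 74.3, 80.8 and 57.6 FPKM.

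In succinate dehydrogenase, SDHA, the flavoprotein subunit, was at 64.4 FPKM (N-scr), 73.2 FPKM (H-scr), 54.3 FPKM (N-si) and 55.5 FPKM (H-si). The membrane anchors were at 131, 128, 230 and 184 FPKM for SDHC and 94.5, 61.9, 138 and 112 FPKM for SDHD. SDHC and SDHD were higher with TET1-si in both oxygen states, and SDHA and SDHB were not. Both anchors have processed pseudogenes, so their levels are less certain. The ratio of SDHB to SDHA was 2.15 (N-scr) and 2.33 (N-si) in normoxia against 1.02 (H-scr) and 1.25 (H-si) in hypoxia. Of 4 SDH assembly factors, ACN9 was lower in hypoxia by -0.9 in scrambled and -0.82 in TET1-si cells, C6orf57 was higher by 0.57 and 0.76, and none passed 2-fold in the 4 comparisons.

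Of the subunits of succinyl-CoA ligase, SUCLG1 was at 108 FPKM (N-scr), 89.1 FPKM (H-scr), 117 FPKM (N-si) and 85.3 FPKM (H-si), SUCLA2 at 37.5, 23.8, 41.4 and 26.2 FPKM, and SUCLG2 at 24.7, 20.4, 53.7 and 37.6 FPKM. SUCLG2, the GTP-specific subunit, was 2-fold or more higher with TET1-si in normoxia (1.12), but not under median-of-ratios or upper-quartile scaling. Cytosolic MDH1 was at 240, 230, 262 and 185 FPKM, and the ratio of MDH2 to MDH1 was 1.30 in N-scr and 0.799 in H-si. Over the 12 other subunits and enzymes of the cycle the median hypoxia change was -0.22 in scrambled and -0.23 in TET1-si cells, and the median TET1-si change -0.03 in both oxygen states. The hypoxia medians were -0.10 and -0.09 under TPM. The TET1-si medians in normoxia and hypoxia were -0.19 and -0.15 under median-of-ratios scaling, -0.15 and -0.09 under upper-quartile scaling, and 0.02 and 0.03 under TPM.

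**Figure D4:**
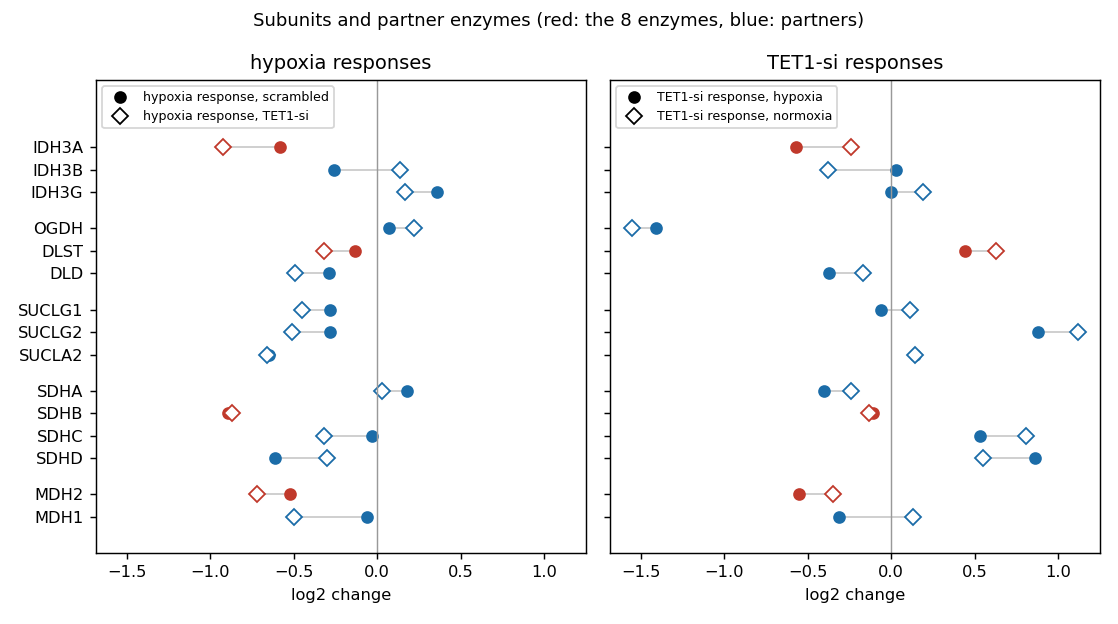
Log2 changes of subunits of the same complex and of partner enzymes, for hypoxia (left) and TET1-si (right), with 1 row per gene, the 8 enzymes in red and partners in blue, circles and diamonds for the 2 states named in each panel, and grey lines joining them. OGDH and DLST lie on opposite sides of 0 on the right, and SDHB lies left of SDHA, SDHC and SDHD on the left.

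Citrate leaves the mitochondrion through SLC25A1 and is split in the cytosol by ACLY. ACLY was at 74.9 FPKM (N-scr), 251 FPKM (H-scr), 87.7 FPKM (N-si) and 55.1 FPKM (H-si). SLC25A1 was at 24.6, 61.9, 30.9 and 34.0 FPKM. Like IDH2, both were highest in H-scr, with hypoxia changes of 1.74 and 1.33 without knockdown and -0.67 and 0.14 in TET1-si cells. The ratio of CS to ACLY was 2.28 (N-scr), 0.402 (H-scr), 1.03 (N-si) and 0.723 (H-si). All 5 genes of the list of cytosolic counterparts and citrate export (ACO1, MDH1, ACLY, SLC25A1 and ME1) had a lower hypoxia change in TET1-si than in scrambled cells, and the median difference of hypoxia responses was -0.78.

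Glutamine supply showed opposite changes within its list. GLUL, glutamine synthetase, was at 116 FPKM (N-scr), 294 FPKM (H-scr), 228 FPKM (N-si) and 722 FPKM (H-si), and passed 2-fold upwards under hypoxia with and without knockdown (1.66 and 1.35) and with TET1-si in hypoxia (1.29). Of the transporters, SLC38A2 was higher in hypoxia (99.8 against 203 FPKM without knockdown, change 1.02, under 2-fold with median-of-ratios scaling). SLC1A5 was at 75.7, 41.3, 44 and 25 FPKM in the order N-scr, H-scr, N-si, H-si, and SLC38A1 was at least 2-fold lower with TET1-si, by -1.23 in normoxia and -1.18 in hypoxia. Over the 6 genes of glutamine uptake and synthesis above the minimum, the median hypoxia change was -0.41 in scrambled and 0.23 in TET1-si cells, and the median TET1-si change -0.68 in normoxia and -0.44 in hypoxia.

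In the list of genes that convert glutamine and glutamate, 8 of 10 above the minimum were lower in hypoxia in each cell state. The list is wider than entry into the cycle, since PYCR1, ALDH18A1 and OAT do not carry glutamate to 2-oxoglutarate. ALDH18A1 was lower in hypoxia by -0.51 in scrambled and -0.5 in TET1-si cells, and OAT was higher by 0.84 and 0.05. The medians were -0.41 in scrambled and -0.62 in TET1-si cells, against 0.05 and 0.03 for all genes, and -0.29 and -0.49 under TPM. In scrambled cells the count was 7 of 10 under upper-quartile scaling and TPM, since GLUD1 was at -0.01. GLUD1, glutamate dehydrogenase, was at 65.1 FPKM (N-scr), 64.5 FPKM (H-scr), 56.4 FPKM (N-si) and 44.7 FPKM (H-si). The aspartate transaminases were at 63.8, 56.2, 43.4 and 24.3 FPKM for cytosolic GOT1 and 150, 122, 152 and 90.6 FPKM for mitochondrial GOT2, and the alanine transaminase GPT2 at 24.0, 16.3, 28.8 and 15.8 FPKM. GLUD1 and GOT2 have close copies, with which reads may be shared. PSAT1, a transaminase of serine synthesis that also yields 2-oxoglutarate, was at 82.5, 23.3, 44 and 7.25 FPKM, a hypoxia change of -1.82 in scrambled and -2.58 in TET1-si cells. PYCR1, which makes proline, was at 69.4, 14.9, 228 and 69.2 FPKM, lower in hypoxia by -2.21 and -1.72 and higher with TET1-si by 1.71 in normoxia and 2.21 in hypoxia. GOT1 (-1.21) and PSAT1 (-1.67) were at least 2-fold lower with TET1-si in hypoxia. The median TET1-si change of this list was 0.14 in normoxia and -0.13 in hypoxia, and the former was -0.02 under median-of-ratios scaling.

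Of 6 mitochondrial carriers of TCA intermediates and glutamate above the minimum, all 6 were below 0 in the hypoxia response of scrambled cells (median -0.55), although 1, at -0.01, was above 0 under upper-quartile scaling and TPM. In TET1-si cells 5 of 6 were lower (median -0.35). SLC25A10, the dicarboxylate carrier, was at 28.1 FPKM (N-scr), 13.3 FPKM (H-scr), 43.6 FPKM (N-si) and 14.7 FPKM (H-si). Its hypoxic decrease passed 2-fold with and without knockdown, except without it under TPM. SLC25A12, an aspartate-glutamate carrier, was higher with TET1-si in hypoxia by 1.18. The median TET1-si change of the carriers was 0.23 in normoxia and 0.22 in hypoxia, and 0.07 and 0.10 under median-of-ratios scaling.

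At pyruvate entry, PDHA1, the catalytic subunit of pyruvate dehydrogenase, was at 401 FPKM (N-scr), 268 FPKM (H-scr), 394 FPKM (N-si) and 239 FPKM (H-si), the same kind of hypoxic decrease as in CS and MDH2. PDK1, the kinase that inactivates it, was at 1.71, 8.77, 6.16 and 16.0 FPKM, higher in hypoxia by 2.29 in scrambled and 1.37 in TET1-si cells. PDK2 also passed 2-fold there in the scrambled pair (1.07). PC, pyruvate carboxylase, which supplies oxaloacetate, was at 17.9, 56.0, 43.8 and 83.4 FPKM, with a hypoxia change of 1.64 in scrambled cells and a TET1-si change of 1.29 in normoxia. The phosphatase gene PDP1 had hypoxia changes of 0.59 and -0.9, a difference of -1.48. Over 10 genes of pyruvate entry the median hypoxia change was 0.27 in scrambled and -0.31 in TET1-si cells, and over the 3 kinases above the minimum it was 1.07 and 0.78. The median TET1-si changes in normoxia and hypoxia were 0.38 and -0.04 for pyruvate entry and 0.62 and 0.09 for the kinases, of which the value for the kinases in hypoxia was -0.04 under median-of-ratios scaling and that for pyruvate entry in hypoxia was 0.02 with TPM.

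In the side routes of malate and 2-hydroxyglutarate, ADHFE1, a hydroxyacid-oxoacid transhydrogenase, was at 3.43 FPKM (N-scr), 15 FPKM (H-scr), 14.3 FPKM (N-si) and 69.0 FPKM (H-si). It was at least 2-fold higher in all 4 comparisons (2.09 and 2.26 in hypoxia, 2.03 and 2.20 with TET1-si). ME3, a mitochondrial malic enzyme, was higher with TET1-si in hypoxia by 1.39, and ME2 was listed at 0 in all 4 libraries. The 6 genes of this list above the minimum had median hypoxia changes of -0.07 and 0.08 in scrambled and TET1-si cells, the first of which was 0.05 under TPM, and median TET1-si changes of 0.68 in normoxia and 0.71 in hypoxia.

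The 13 respiratory subunits encoded in mitochondrial DNA were summed at 1924 FPKM (N-scr), 1790 FPKM (H-scr), 1280 FPKM (N-si) and 1125 FPKM (H-si). All 13 were lower with TET1-si in both oxygen states, also under the other 3 scalings, with median changes of -0.54 in normoxia and -0.48 in hypoxia. Their hypoxia medians were -0.12 and -0.15, and within 0.01 of 0 under TPM. Of 68 pathway genes outside the 8, 62 had a mean of at least 1 FPKM. The hypoxia response of scrambled cells had 26 of these higher and 36 lower (median -0.11), and that of TET1-si cells 25 higher and 37 lower (-0.17). The TET1-si response had 31 higher and 31 lower in hypoxia (-0.01) and 41 higher and 21 lower in normoxia (0.26).

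The study's criteria for TET1-regulated genes are 3 inequalities. The hypoxic scrambled level must exceed 2 times the hypoxic TET1-si level, it must also exceed the normoxic scrambled level, and the latter must be no lower than its TET1-si counterpart. None of the 8 enzymes met all 3. CS missed the rise in hypoxia, IDH1 the 2-fold difference, and IDH2 the third condition, with 29.2 FPKM in N-scr and 31.5 in N-si, an order that turned under median-of-ratios and upper-quartile scaling. IDH3A, SDHB and MDH2 met 1 criterion and DLST and FH 0. Of the 62 other pathway genes 1, OGDH, met all 3 (1.61%), as did 578 of 15057 genes (3.84%).

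The genomic surroundings of the 8 differed in their TET1-si response. Around each enzyme the 50 nearest protein-coding genes with a mean of at least 1 FPKM were taken, 25 on each side. Around IDH2 (chromosome 15, 85185999 to 100256671) their median TET1-si change was -0.69 in normoxia and -0.81 in hypoxia. IDH2 itself was at 0.11 and -1.24, so 33 of 50 neighbours were below it in normoxia and 18 of 50 in hypoxia. Among the 20 nearest, the medians were -1.21 and -1.51, and 19 of 20 lay below IDH2 in normoxia. Around MDH2 (chromosome 7, 66460160 to 87505672) the medians were -0.38 in normoxia, close to its own -0.35, and -0.31 in hypoxia, above its own -0.55. Around DLST (chromosome 14, 73704205 to 77857840) they were 0.69 and 0.54, close to its own 0.63 and 0.44.

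Around CS (chromosome 12, 56151059 to 57911352) the medians were -0.39 in normoxia and -0.58 in hypoxia, and CS itself was lower still, with 5 of 50 neighbours below it in each state. IDH1 and IDH3A were lower with TET1-si among neighbours whose medians were above 0, 0.25 and 0.23 around IDH1 and 0.31 and 0.2 around IDH3A. The neighbours of SDHB (0.29 and 0.25) and FH (0.27 and 0.2) also had medians above 0, and FH was above its neighbours' median in normoxia and below it in hypoxia. In the hypoxia response of scrambled cells 47 of 50 neighbours lay below IDH2 and 44 of 50 below IDH1, while 3 of 50 lay below SDHB and 2 of 50 below MDH2.

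**Figure D5:**
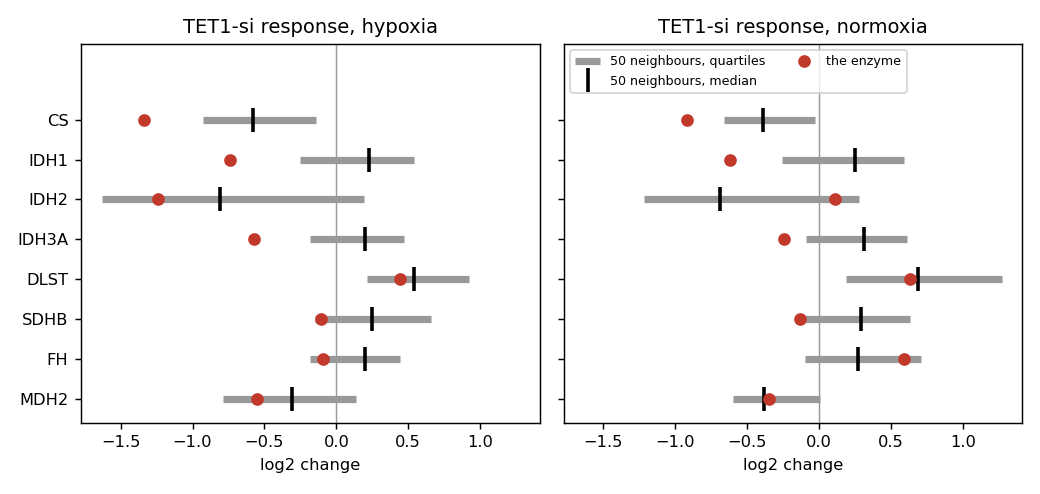
TET1-si change of each enzyme (red points) beside that of its 50 nearest protein-coding genes (black tick, median, and grey bar, quartiles), in hypoxia (left) and normoxia (right), on the log2 scale. DLST and MDH2 lie near the median of their neighbours in normoxia, and CS, IDH1 and IDH3A lie left of the grey bar in both states.

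For each enzyme the genes with the most similar profile over the 4 libraries were sought among 10785 genes with a mean of at least 5 FPKM, by the root mean square difference of mean-centred log2 values. The 3 closest to IDH1 were SLC38A2 (0.029), GDA (0.032) and SPEG (0.062). Those of IDH2 were IFIT5 (0.067), PLSCR1 (0.068) and RP11-126K1.8 (0.070). CS was closest to TFAP4 (0.069), PDXP and TROAP. IDH3A was closest to SENP1 (0.019), SKP2 and YBX1, DLST to FXR2 (0.015), MEAF6 and ZNF174, and SDHB to CLPB (0.0098), STXBP4 and POFUT1. FH was closest to GRPEL2 (0.035), CKLF and C1orf112, and MDH2 to UQCRH (0.015), GATC and ABCB10. Profiles within 0.25 of the enzyme's were found for 61 genes with IDH2, 108 with IDH1 and 181 with CS, against 1145 to 2143 genes with the other 5. With 4 points per profile such closeness is a description only.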

How the data were processed

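RNA-Seq was analysed in 4 FaDu libraries, 1 per group, grouped by the labels. The deposited values are gene-level FPKM, which the authors made with TopHat and Cufflinks on hg19 with Ensembl annotation. Tool versions and filters are not given in the sources used here. The labels call the 100 bp reads single end and the methods paired end. Changes are differences of log2(FPKM + 0.1), which understates the change of low genes. The background was the 15057 genes on 1 row of a chromosome with a mean of at least 1 FPKM. The 232 rows of repeated gene IDs were left out.

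Depth was recovered from 9646 single-exon genes, of whose low values 96.9 to 97.5% came out as whole reads within 0.05. FPKM are not counts, no count test was run, and the reads per gene are estimates from the canonical transcript length in GENCODE v44lift37. Intervals of a ratio are exact (Clopper-Pearson, 95%) and carry no pseudocount, and those of a difference of responses are normal approximations. Both cover counting error only. The steps were tested on simulated data (Python 3.11.15, numpy 2.4.6, pandas 2.3.3, scipy 1.17.1).

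The members and gene lists were chosen with earlier results of these data known. Named were all 8 enzymes, listed genes with a mean of at least 5 FPKM and a 2-fold change, and partner subunits, glutamine entry genes, ACLY, MDH1, PDK1 and PDHA1 whatever their change, and the 3 genes most like each enzyme. C6orf57, ACN9, ME2 and the motifs were added after values were seen. Alternatives were other scalings (median of ratios, upper quartile, TPM), pseudocounts of 1 and none, and other minimum levels. Some genes of the fixed lists are not reported here by name.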

Additional observations from a re-analysis of the deposited data

Results flagged for a closer look

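IDH2 went opposite ways in 2 pairs of comparisons. Its hypoxia change was 1.24 with the scrambled control and -0.11 with TET1-si, and its TET1-si change was -1.24 in hypoxia and 0.11 in normoxia. Both pairs differ by -1.35, since they come from the same 4 libraries. FH had a TET1-si change of -0.09 in hypoxia and 0.59 in normoxia, which differ by -0.68. Each group had 1 library, so these differences were not tested, and the smaller value of each IDH2 pair changes sign under another scaling.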

How the results depend on the processing

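With 1 library per group nothing could be left out, and no replicate check exists. No paired analysis was possible because each group had 1 library. Of 200 values of the 8 enzymes under the alternatives, 133 moved by less than their counting interval, 64 moved by more and 3 changed sign. All that moved by more or changed sign did so under the 3 other scalings. The other pseudocounts could hardly move genes at these levels, so the 133 include values that were stable by construction. The 3 sign changes were all of IDH2: its TET1-si change in normoxia was -0.06 (median-of-ratios scaling) and -0.01 (upper-quartile scaling), and its hypoxia change in TET1-si cells 0.02 (TPM). The scaling moved all genes too: their median TET1-si change went to -0.01 in both oxygen states with median-of-ratios scaling and to 0.03 in normoxia with upper-quartile scaling, and their median hypoxia change to 0.16 in both cell states with TPM. The median of every gene list moves by about the same shift, by construction, so list medians near 0 can change sign or size. Median-of-ratios scaling moved the median over the 8 to -0.68 for the TET1-si response in hypoxia and -0.35 in normoxia, upper-quartile scaling to -0.3 in normoxia and -0.69 for the hypoxia response of TET1-si cells, and TPM to -0.49 for TET1-si in hypoxia and -0.66 and -0.32 for hypoxia in TET1-si and scrambled cells. Under median-of-ratios and upper-quartile scaling 5 enzymes were 1.5-fold lower with TET1-si in hypoxia, and in normoxia 1 was 2-fold lower and 0 were 1.5-fold higher. With TPM 1 was 1.5-fold lower there. In the hypoxia response of TET1-si cells 1 was 2-fold higher and 1 was 2-fold lower under upper-quartile scaling and TPM. The share of all genes past a size moved with the genes and pseudocount. With a pseudocount of 1, 8.22% of genes passed 2-fold upwards for hypoxia with the scrambled control and 7.73% for TET1-si in normoxia. At a minimum mean of 5 FPKM, 8.39% and 7.63% did so for hypoxia with the scrambled control and with TET1-si. With no minimum, hypoxia in scrambled cells had 8.01% 2-fold higher, 2.93% 2-fold lower, 13.5% 1.5-fold higher and 6.68% 1.5-fold lower. Hypoxia in TET1-si cells had 4.13% 2-fold lower, 14.3% 1.5-fold higher and 8.11% 1.5-fold lower. TET1-si in hypoxia had 7.49%, 5.46%, 13.3% and 9.56% in the order of the former, and TET1-si in normoxia had 6.56% 2-fold higher, 11.9% 1.5-fold higher and 7.56% 1.5-fold lower. At a minimum of 30 FPKM, added after seeing the data, the shares 2-fold and 1.5-fold higher were 5.79% and 11.8% for hypoxia in scrambled cells, 5.44% and 12.2% for hypoxia in TET1-si cells, 4.93% and 13.6% for TET1-si in hypoxia, and 4.41% and 14.4% for TET1-si in normoxia. These shares thus depended on which genes were compared and on the pseudocount.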
